A study of Ctenopharyngodon idella with 15 samples.

Results

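The genes described are 3 semaphorin loci of the grass carp (Ctenopharyngodon idella), semaphorin-3E, semaphorin-4B and semaphorin-4C isoform X1, 3 of the 40116 genes in the expression files. Their loci were chosen by the names given to them in the paper. In the files they are CI01000013_10127318_10157548.path1, CI01000026_05004965_05013169.path1 and CI01000071_03793473_03817709.path1, in the order of the genes above, and all 3 passed the filter on low expression that left 24647 genes. The gills came from uninfected fish aged 3 months, sampled on day 30 and each sequenced as a library of its own. Every group had 3 fish. At 3‰ salinity there were a symptomatic and an asymptomatic group, at 6‰ likewise a symptomatic and an asymptomatic group, and the fifth group was untreated (con, 0‰). Salinity was made with sea salt, and treated fish were sampled after 30 days of it. For the treated fish the sample labels name saline-alkali water and print 3% and 6% where ‰ is used here. Symptomatic means that the body of the fish was injured, with lost scales and ulcerated fins. The paper describes the damage as most serious at 3‰, with bleeding as well, and as slight at 6‰. Severity of symptoms therefore cannot be told apart from salinity. The study also examined gill sections of these groups, which are not analysed here. It describes normal lamellae in con and 6‰-treated asymptomatic fish, and less cell mass between lamellae in 6‰-treated symptomatic fish. At 3‰ it describes lamellae stuck together and more plasma cells, most of all with symptoms. The number of aquaria per salinity was not stated, so an effect of the aquarium cannot be told apart from that of salinity.

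Semaphorins are extracellular signals that share a sema domain and act through plexin receptors, alone or together with neuropilins. They were first known for steering growing axons, and in mammals several also act on vessels, epithelia and immune cells. Class 3 members such as semaphorin-3E are secreted, and class 4 members such as semaphorin-4B and semaphorin-4C are anchored in the membrane. In the mouse, semaphorin-3E binds plexin-D1 directly and shapes the vascular pattern, and semaphorin-4C is a ligand of plexin-B2. Semaphorin-4B is known in mammals from synapses and from contacts of T cells with basophils. Roles of these 3 genes in the fish gill are not assumed here.

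The locus of semaphorin-3E lies on scaffold CI01000013 from 10127318 to 10157548, a span of 30231 bp. That of semaphorin-4B lies on CI01000026 from 5004965 to 5013169 (8205 bp), and that of semaphorin-4C isoform X1 on CI01000071 from 3793473 to 3817709 (24237 bp). These positions are part of the locus names, and the sources used here do not state their genome build. No other locus of the files overlaps any of them. The files pair no locus with a gene name, and 0 of their identifiers matched the RefSeq gene table of the HZGC01 assembly, so plexins, neuropilins, other semaphorins and markers of gill cells were not analysed here. By name alone, that table holds 30 semaphorin genes. One of them is called sema3e, with sema3ab and sema3d as its next protein-coding genes, one is called sema4c, and 2 copies, sema4ba and sema4bb, carry the name of semaphorin-4B. Which copy the semaphorin-4B locus is was not determined, and the treatment of reads shared between such copies by the authors was not stated.

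The values are FPKM, the fragments on a gene scaled by the length of its transcript and by the size of the library, so levels of different genes can be set side by side. FPKM keeps no read count per gene. The paper gives the clean data in total and a minimum per library, but not the depth of each single library. Summed over genes, FPKM came to 759044 to 852270 per library, and 28848 to 30345 genes were above 0. In bulk gill, fewer cells of a type and less RNA per cell cannot be told apart. Of the 105 pairs of libraries, the 2 most alike belonged to different groups, replicate 1 of the 3‰-treated symptomatic and replicate 1 of the 6‰-treated symptomatic fish (median absolute log2 difference 0.14, against 0.18 for the next pair). In those 2 fish the 3 semaphorins were higher at 6‰, which is the direction for which the loci were picked. The share of genes that differed as much was not counted. Semaphorin-3E had 1.628 FPKM in the 6‰ fish and 0.9653 FPKM in the 3‰ fish, semaphorin-4B 7.514 and 5.021 FPKM, and semaphorin-4C isoform X1 8.353 and 5.867 FPKM, again with the 6‰ fish first.

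These loci were picked in the paper, among others, because they were lower in 3‰-treated than in 6‰-treated fish of these same libraries. The difference between the salinities is therefore given as a description with no test. Comparisons of 3‰-treated and of 6‰-treated fish with con are both not free of that choice. Their p values, adjusted or not, do not allow for it. Such a choice favours low values at 3‰ and high values at 6‰. The comparisons with symptoms run within a salinity, but were read from the same 12 treated fish.

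Semaphorin-3E was the gene with the lowest level. Over the 15 fish it lay above 48.3% of all 40116 genes (median over fish). In con the 3 fish had 1.2, 0.6866 and 0.7702 FPKM. At 3‰ the symptomatic fish had 0.9653, 1.207 and 0.384 FPKM and the asymptomatic fish 1.402, 1.233 and 1.195 FPKM. At 6‰ the symptomatic fish had 1.628, 1.414 and 1.73 FPKM and the asymptomatic fish 3.133, 2.569 and 1.976 FPKM. Every fish at 6‰ was thus above every fish at 3‰ and in con, though at the closest by 1.414 against 1.402 FPKM. A higher level at 6‰ than at 3‰ is also what the loci were picked for. The share of all genes with this pattern was not counted. The asymptomatic fish at 6‰ were above all others. In order of the group means the levels were 0.852 ± 0.423 FPKM at 3‰ with symptoms, 0.886 ± 0.276 in con, 1.28 ± 0.110 at 3‰ without symptoms, 1.59 ± 0.161 at 6‰ with symptoms and 2.56 ± 0.579 at 6‰ without symptoms (SD, n = 3). The first 3 of these groups overlapped in sequence, while each of the last 2 lay wholly above the group before it.

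Semaphorin-4B had an intermediate level, above 63.9% of all genes, and on the log2 scale the widest spread of the 3 genes in con and at 3‰ without symptoms. In con the 3 fish had 1.788, 4.039 and 5.071 FPKM. At 3‰ the symptomatic fish had 5.021, 4.919 and 6.61 FPKM and the asymptomatic fish 5.889, 3.104 and 1.44 FPKM. At 6‰ the symptomatic fish had 7.514, 6.522 and 5.724 FPKM and the asymptomatic fish 7.185, 8.667 and 6.0 FPKM. Replicate 1 of con and replicate 3 of the 3‰-treated asymptomatic fish were the low ones, below 2 FPKM. All 6‰-treated fish were above all con fish. Over the 24647 genes past the filter this was counted only for each 6‰ group alone. The shares were 18.3% for asymptomatic and 7.16% for symptomatic fish. The group means were 3.48 ± 2.25 FPKM at 3‰ without symptoms, 3.63 ± 1.68 in con, 5.52 ± 0.949 at 3‰ with symptoms, 6.59 ± 0.897 at 6‰ with symptoms and 7.28 ± 1.34 at 6‰ without symptoms (SD, n = 3). Each group overlapped the next in this order.

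Semaphorin-4C isoform X1 had the highest level, above 68.6% of all genes. In con the 3 fish had 8.035, 5.461 and 5.784 FPKM. At 3‰ the symptomatic fish had 5.867, 7.221 and 6.276 FPKM and the asymptomatic fish 8.112, 8.553 and 7.062 FPKM. At 6‰ the symptomatic fish had 8.353, 6.114 and 10.91 FPKM and the asymptomatic fish 18.09, 11.51 and 11.75 FPKM. As for semaphorin-3E, the 3 asymptomatic fish at 6‰ were the 3 highest of the 15, a pattern that 2.17% of the 24647 tested genes had and that semaphorin-4B did not. The group means were 6.43 ± 1.40 FPKM in con, 6.46 ± 0.694 at 3‰ with symptoms, 7.91 ± 0.766 at 3‰ without symptoms, 8.46 ± 2.40 at 6‰ with symptoms and 13.8 ± 3.73 at 6‰ without symptoms (SD, n = 3). The first 4 groups overlapped in sequence, and the last lay wholly above the others.

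**Figure D1:**
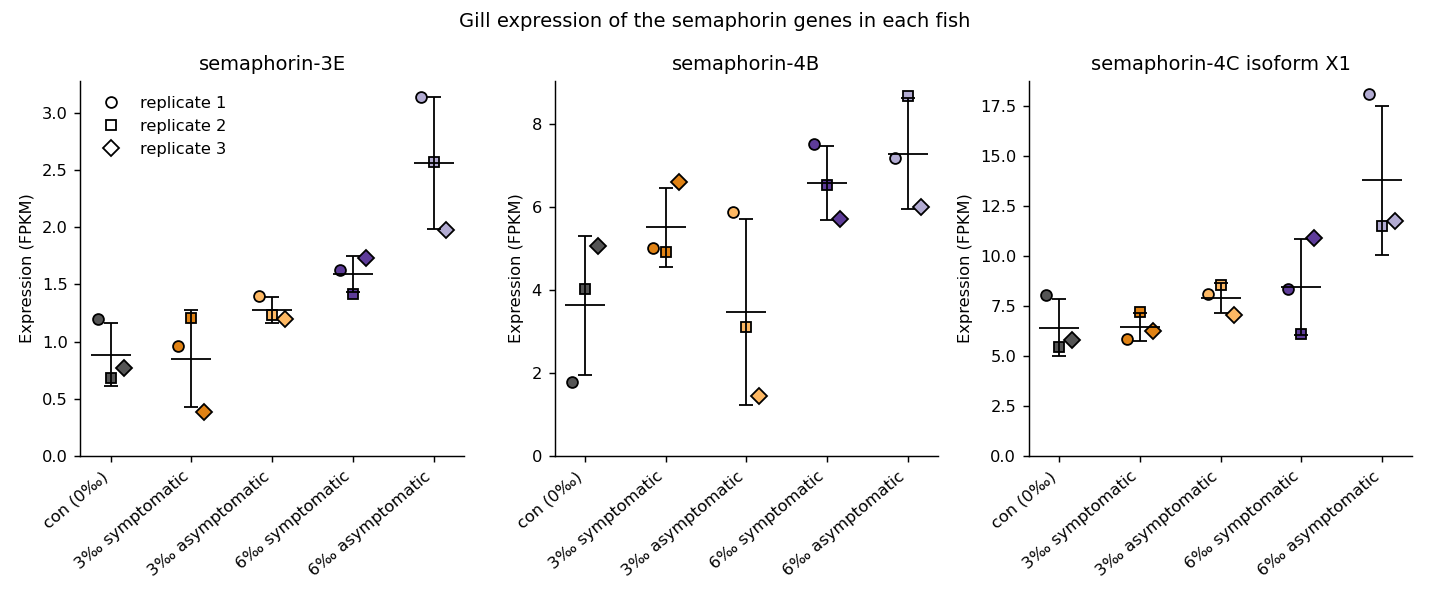
FPKM of semaphorin-3E, semaphorin-4B and semaphorin-4C isoform X1 in each of the 15 fish, by group in order of salinity, with each fish as a point whose shape gives its replicate number, and with the group mean (horizontal line) and SD (error bar, n = 3). For semaphorin-3E and semaphorin-4C isoform X1 the 6‰-treated asymptomatic fish (from 1.976 and from 11.51 FPKM) lie above all other fish, and for semaphorin-4B the con and 3‰-treated asymptomatic fish spread from below 2 to above 5 FPKM.

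The question of the first comparisons was how each treated group differed from untreated fish. They were made with limma on log2(FPKM + 1), and a gene was counted as a DEG (differentially expressed gene) at a fold change of at least 1.5 (0.585 on the log2 scale) and an unadjusted p below 0.05. Because 1 is added to every value, a fold change at low FPKM falls short of the ratio of the FPKM themselves, most of all for semaphorin-3E.

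All 3 semaphorins rose in 6‰-treated asymptomatic fish relative to con, and none was a DEG in either 3‰-treated group. In 6‰-treated asymptomatic fish the mean FPKM was 2.89 times that of con for semaphorin-3E, 2.0 times for semaphorin-4B and 2.14 times for semaphorin-4C isoform X1. In this comparison 7.1% of all tested genes were DEGs with higher expression, and the median log2 fold change was 0.914 over the 3 genes and 0.0798 over all tested genes. For all 3 semaphorins, no 6‰-treated asymptomatic fish overlapped with a con fish, and 18.3% of all tested genes had this pattern in the upward direction. The loci were picked for a higher level at 6‰ than at 3‰ in these libraries, a choice that bears on both salinities against con. The values of these loci beside those of all tested genes are therefore a description.

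Semaphorin-3E changed by 0.91 on the log2 scale in 6‰-treated asymptomatic fish (SE 0.18, adjusted p = 0.0386 with limma and Benjamini-Hochberg over all tested genes). It was the only one of the 3 below 0.05 after adjustment, as were 1.18% of all tested genes. The p values of this comparison do not allow for the choice of the loci by their levels at 6‰ and 3‰. With an added 0.1 or 0.01 in place of 1, its log2 fold change was 1.44 or 1.54. It was a DEG whichever fish was left out, but the adjusted p was not stable. Of the 6 fits that left out a fish of either group, 0 had an adjusted p below 0.05. Over 14 alternative fits the adjusted p was below 0.05 in 4 and ranged from 0.0374 to 0.172. These 14 leave out the fit of only the groups compared, where the adjusted p with limma was 0.0791. With limma it was 0.0554 after median-ratio scaling, 0.0635 after quantile normalization, and 0.0626 or 0.0767 with an added 0.1 or 0.01. Semaphorin-4C isoform X1 changed by 0.98 (SE 0.22, adjusted p = 0.0517), was likewise a DEG whichever fish was left out, and had adjusted p values of 0.0497 to 0.211 over the same alternatives. Semaphorin-4B changed by 0.90 (SE 0.34, adjusted p = 0.217, range 0.142 to 0.562). It was not a DEG without con replicate 1, the low fish, where the log2 fold change was 0.57, or without replicate 2 of the 6‰-treated asymptomatic fish, where it was 0.78.

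**Figure D2:**
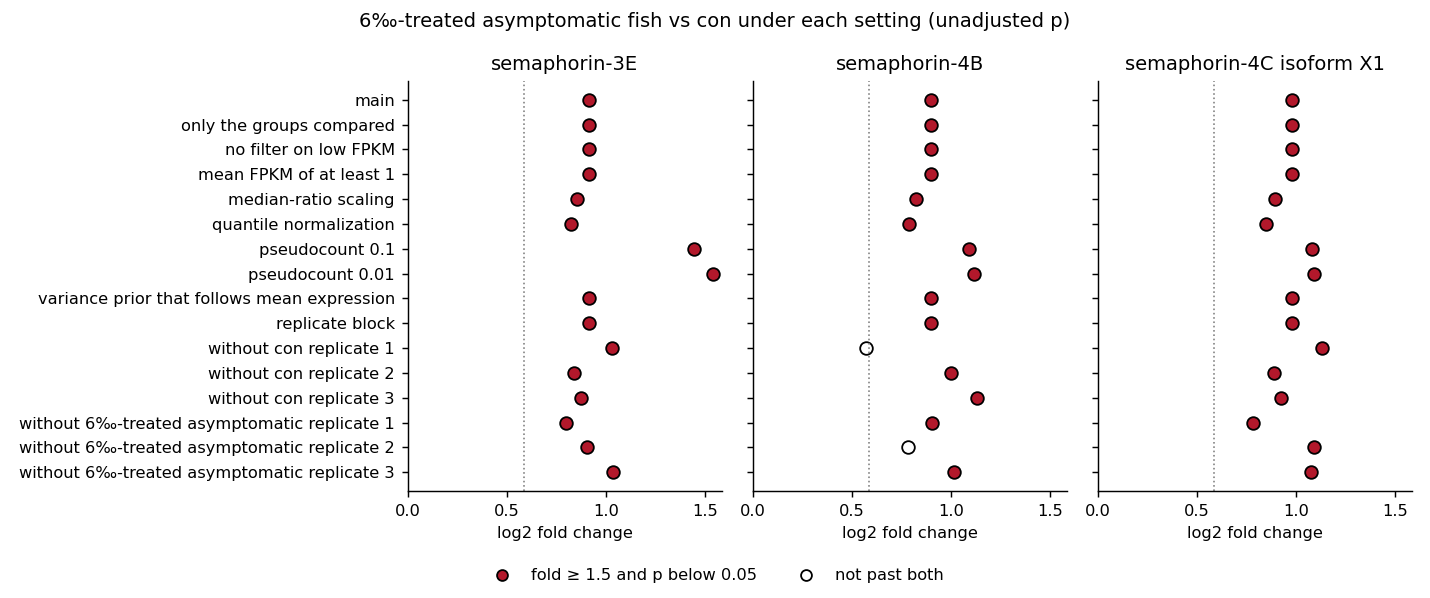
Log2 fold change of the 3 semaphorins in 6‰-treated asymptomatic fish vs con (horizontal axis) in the fit as reported (top) and under each alternative setting other than the adjusted p as threshold, with filled points past the fold of 1.5 (dotted line) and an unadjusted p below 0.05. Semaphorin-3E lies between 0.799 and 1.54 and semaphorin-4C isoform X1 between 0.782 and 1.13, all filled, while semaphorin-4B has 2 open points, at 0.57 and 0.78.

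In 6‰-treated symptomatic fish 1 of the 3 semaphorins was a DEG against con, where 4.02% of all tested genes were higher DEGs. This was semaphorin-4B, with a log2 fold change of 0.78 (SE 0.34, adjusted p = 0.494 with limma). All 3 of these fish lay above all con fish, for semaphorin-4B as for semaphorin-3E, a pattern of 7.16% of all tested genes. The DEG call of semaphorin-4B was lost without con replicate 1 (0.45) and without each of the 6‰-treated symptomatic fish (0.69, 0.78 and 0.86 without replicates 1, 2 and 3). It was also lost with the replicate number as a block (0.78) and with an added 0.1 (0.95) or 0.01 (0.98). Semaphorin-3E had a log2 fold change of 0.47 (SE 0.18, 95% interval 0.0665 to 0.866, adjusted p = 0.42), with an unadjusted p below 0.05 but short of the fold of 1.5. The ratio of its mean FPKM was 1.8, and with an added 0.1 or 0.01 its log2 fold change was 0.81 or 0.88 and passed the DEG threshold. Semaphorin-4C isoform X1 had 0.33 (95% interval -0.137 to 0.804, adjusted p = 0.705), and 1 of its 6‰-treated symptomatic fish, replicate 2 with 6.114 FPKM, lay among the con fish. Its value was 0.52 without that fish and 0.15 without replicate 3, the high one at 10.91 FPKM.

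In 3‰-treated symptomatic fish 0 of the 3 semaphorins were DEGs against con, where 4.27% of all tested genes were higher DEGs (limma, and 0 of the 3 had an unadjusted p below 0.05). Semaphorin-4B came closest, with a log2 fold change of 0.56 (95% interval -0.187 to 1.30, adjusted p = 0.593) and 1 of 3 fish above all con fish, and its value was 0.23 without con replicate 1. Semaphorin-3E had -0.04 (95% interval -0.443 to 0.356, adjusted p = 0.962) and semaphorin-4C isoform X1 0.02 (-0.453 to 0.488, adjusted p = 0.989). The last of these values fell below 0 when the libraries were rescaled (-0.02 with median-ratio scaling and -0.05 with quantile normalization).

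In 3‰-treated asymptomatic fish, too, 0 of the 3 were DEGs, where 4.24% of all tested genes were higher DEGs (limma, and 0 had an unadjusted p below 0.05). The log2 fold changes were 0.28 for semaphorin-3E (95% interval -0.119 to 0.680, adjusted p = 0.556), -0.10 for semaphorin-4B (-0.846 to 0.642, adjusted p = 0.911) and 0.28 for semaphorin-4C isoform X1 (-0.196 to 0.746, adjusted p = 0.609). For each gene the fish overlapped with con, as they did in 3‰-treated symptomatic fish, while 14.2% of all tested genes had every 3‰-treated asymptomatic fish above con and 9.59% every 3‰-treated symptomatic fish. In this group the intervals of all 3 genes reach past 0.585. A rise of 1.5-fold on the scale of FPKM + 1 was therefore not excluded with 3 fish per group. In 3‰-treated symptomatic fish only the interval of semaphorin-4B reaches past 0.585. A rise of 1.5-fold in the FPKM of semaphorin-3E itself is smaller than 0.585 on this scale, and was not excluded there either.

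Over the 4 treated groups together, 0 of the 3 genes were DEGs against con, beside 3.59% of all tested genes with higher expression. The log2 fold changes were 0.40 for semaphorin-3E (SE 0.15, adjusted p = 0.276), 0.53 for semaphorin-4B (SE 0.27, adjusted p = 0.426) and 0.40 for semaphorin-4C isoform X1 (SE 0.17, adjusted p = 0.351) with limma. Of the 12 treated fish, 9 lay above all con fish for semaphorin-3E, 8 for semaphorin-4B and 7 for semaphorin-4C isoform X1. Such numbers were not counted over all tested genes, whose median log2 fold change in this comparison was 0.0673. An exact two-sided permutation test over all ways to draw 3 of the 15 fish gave p = 0.123, 0.123 and 0.145 for the genes in this order, where 0.0022 is the smallest p possible. Semaphorin-4B passed the DEG threshold when a single fish was left out in 2 cases, with 0.77 without con replicate 3 and 0.63 without replicate 3 of the 3‰-treated asymptomatic fish, and without con replicate 1 its value was 0.20. That of semaphorin-3E passed the threshold with an added 0.1 (0.66) or 0.01 (0.70).

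**Figure D3:**
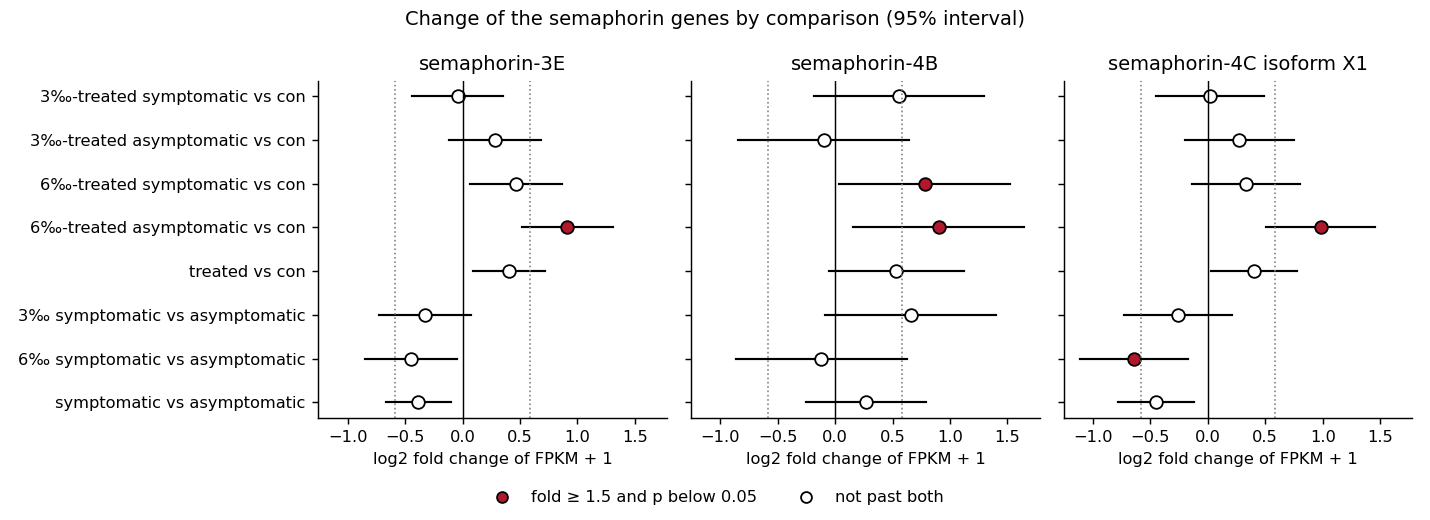
Log2 fold change on the scale of FPKM + 1 (point) with its 95% interval (line) for each semaphorin in 8 comparisons, from the limma fit over all 15 fish, where dotted lines mark a fold of 1.5 and filled points are DEGs. Filled are all 3 genes in 6‰-treated asymptomatic fish vs con (0.90 to 0.98), semaphorin-4B in 6‰-treated symptomatic fish vs con (0.78) and semaphorin-4C isoform X1 in symptomatic vs asymptomatic fish at 6‰ (-0.65).

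The second question was whether expression differed with symptoms at the same salinity. At 6‰, semaphorin-4C isoform X1 was lower in symptomatic than in asymptomatic fish, with a mean FPKM 0.614 times as high and a log2 fold change of -0.65 (SE 0.22, adjusted p = 0.369 with limma). It was the 1 DEG among the 3 genes in this comparison, where 3.23% of all tested genes were lower DEGs. All 3 symptomatic fish lay below all asymptomatic fish for this gene and for semaphorin-3E, as for 10.2% of all tested genes. The call was lost without replicate 1 of the asymptomatic fish, the highest at 18.09 FPKM (-0.45), and without replicate 2 of the symptomatic fish, the lowest at 6.114 FPKM (-0.46). Semaphorin-3E had -0.45 (SE 0.18, adjusted p = 0.421), with an unadjusted p below 0.05 but short of the fold of 1.5 on this scale, with a ratio of mean FPKM of 0.621. Semaphorin-4B had -0.12 (95% interval -0.865 to 0.623, adjusted p = 0.906).

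At 3‰, 0 of the 3 genes were DEGs with symptoms, where 5.04% of all tested genes were DEGs in either direction (limma, and 0 of the 3 had an unadjusted p below 0.05). Semaphorin-3E had a log2 fold change of -0.32 (95% interval -0.724 to 0.0757, adjusted p = 0.522) and semaphorin-4C isoform X1 -0.26 (-0.728 to 0.213, adjusted p = 0.671). Without replicate 3 of the 3‰-treated symptomatic fish, the low one at 0.384 FPKM, the value of semaphorin-3E was -0.13. Semaphorin-4B had 0.66 (-0.0854 to 1.40, adjusted p = 0.479), the one positive value of the 6 at either salinity. Without replicate 1 of the 3‰-treated asymptomatic fish, the high one of a group from 1.44 to 5.889 FPKM, this value was 1.03 and passed the DEG threshold, and it also passed after quantile normalization (0.74).

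Over both salinities, with 6 symptomatic and 6 asymptomatic fish, semaphorin-3E had a log2 fold change of -0.39 (SE 0.13, adjusted p = 0.153) and semaphorin-4C isoform X1 one of -0.45 (SE 0.15, adjusted p = 0.154) with limma. Neither reached the fold of 1.5 and neither was a DEG, where 2.57% of all tested genes were lower DEGs, and semaphorin-3E became one with an added 0.1 (-0.64) or 0.01 (-0.69). For semaphorin-4B the value was 0.27 (SE 0.24, adjusted p = 0.552). An exact two-sided permutation test, with the symptom labels exchanged within each salinity (400 regroupings, smallest p possible 0.005), gave p = 0.01 for semaphorin-3E, 0.01 for semaphorin-4C isoform X1 and 0.365 for semaphorin-4B. These and the 3 permutation tests against con are 6 tests, whose p values are not adjusted for their number.

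Whether the change with symptoms differed between the salinities was tested as the interaction of salinity and symptoms, the change at 6‰ minus that at 3‰. It was -0.12 for semaphorin-3E (95% interval -0.689 to 0.442), -0.78 for semaphorin-4B (-1.83 to 0.272) and -0.39 for semaphorin-4C isoform X1 (-1.06 to 0.276) on the log2 scale. In limma 0 of the 3 genes passed the threshold, where 3% of all tested genes did, and 0 had an unadjusted p below 0.05 (each adjusted p was 1.00). The opposite signs of semaphorin-4B at the 2 salinities were therefore not shown to differ. Symptoms were also described as more severe at 3‰ than at 6‰, so they are not the same state at both salinities. Without replicate 1 of the 3‰-treated asymptomatic fish its interaction was -1.15 and passed the DEG threshold.

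As a description of what chose these loci, the mean of the 6‰ minus 3‰ differences was 0.57 for semaphorin-3E (SE 0.13), 0.61 for semaphorin-4B (SE 0.24) and 0.51 for semaphorin-4C isoform X1 (SE 0.15) on the log2 scale. In asymptomatic fish the differences were 0.63, 1.00 and 0.71 in the same order of genes, and in symptomatic fish 0.51, 0.22 and 0.32. The 6‰-treated fish had 2.0 times the mean FPKM of the 3‰-treated fish for semaphorin-3E in asymptomatic fish and 1.87 times in symptomatic fish. For semaphorin-4B the ratios were 2.09 in asymptomatic and 1.19 in symptomatic fish, and for semaphorin-4C isoform X1 1.74 and 1.31. In these means semaphorin-4B differed between the salinities mainly through the asymptomatic fish, where 2 of 3 fish at 3‰ had 3.104 and 1.44 FPKM.

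The 3 genes did not follow one profile over the fish. Semaphorin-3E and semaphorin-4C isoform X1 rose and fell together over the 15 fish, with Pearson r = 0.889 and Spearman rho = 0.871 on log2(FPKM + 1), with r = 0.723 without the 6‰-treated asymptomatic fish, and with r = 0.609 for the deviations of each fish from its group mean. Semaphorin-4B had r = 0.346 (rho = 0.561) with semaphorin-3E and r = 0.314 (rho = 0.418) with semaphorin-4C isoform X1, and within groups r was -0.216 and -0.192. These are descriptions with no test, since the loci were picked for a shared trend over 12 of these fish. Con replicate 1 was the lowest con fish for semaphorin-4B and the highest for both other genes. Replicate 3 of the 3‰-treated symptomatic fish was the lowest of all 15 for semaphorin-3E and the highest of the 3‰-treated fish for semaphorin-4B, and its ratio of semaphorin-4B to semaphorin-3E was 17.2, against 1.21 to 6.58 in the other fish. The ratio of semaphorin-4C isoform X1 to semaphorin-3E was 16.3 in that fish and between 4.32 and 7.95 in the others.

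**Figure D4:**
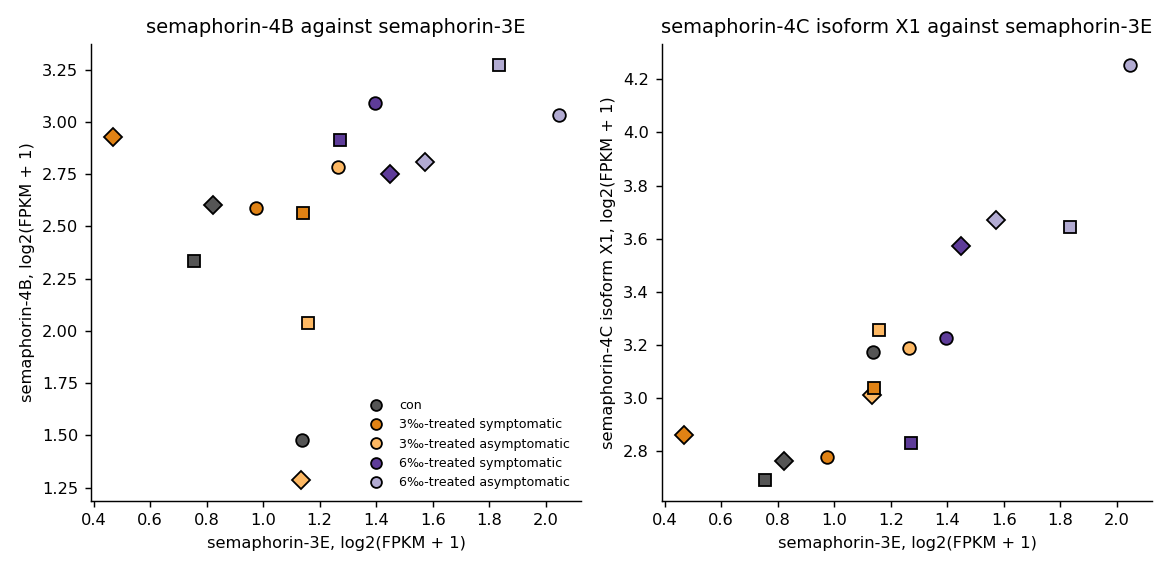
Level of semaphorin-4B (left) and of semaphorin-4C isoform X1 (right) against that of semaphorin-3E on log2(FPKM + 1), where each point is 1 of the 15 fish, coloured by group and shaped by replicate number as in the plot of levels. Semaphorin-4C isoform X1 follows semaphorin-3E (r = 0.889), while semaphorin-4B does so less (r = 0.346), with con replicate 1 and replicate 3 of the 3‰-treated asymptomatic fish at the bottom.

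The spread between fish was that of a typical gene for semaphorin-4C isoform X1 in con (SD 0.261 on the log2 scale, where the median of all tested genes was 0.256) and large for semaphorin-4B in 2 groups. Its SD was 0.749 at 3‰ without symptoms, larger than for 93.8% of all tested genes, and 0.586 in con, larger than for 87.9%. In the other 3 groups its SD was 0.203 at 3‰ with symptoms, 0.170 at 6‰ with symptoms and 0.233 at 6‰ without symptoms. In 6‰-treated asymptomatic fish semaphorin-4C isoform X1 had an SD of 0.344, larger than for 82.9% of genes, with replicate 1 at 18.09 FPKM apart from 11.51 and 11.75 FPKM. The spread of semaphorin-3E was small in 3‰-treated asymptomatic (0.0689) and 6‰-treated symptomatic fish (0.0909), where 11.7% and 7.68% of all tested genes had a smaller one.

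The gene most like each semaphorin over the 15 fish was found by Pearson r on log2(FPKM + 1) among the other tested genes. For semaphorin-4C isoform X1 it was CI01000024_04390651_04399366.path1, with r = 0.957 (0.884 within groups). This locus had 16.36, 12.84 and 12.59 FPKM in 6‰-treated asymptomatic fish and 10.12, 7.721 and 7.451 FPKM in con. For semaphorin-3E it was CI01000009_04763889_04769573.path1, with r = 0.896 (0.597 within groups), at 32.27, 31.71 and 22.77 FPKM in 6‰-treated asymptomatic fish and 10.27, 7.144 and 7.99 FPKM in con. For semaphorin-4B it was Ctenopharyngodon_idella_newGene_4430, with r = 0.891 (0.849 within groups). Like semaphorin-4B, this gene was lowest in replicate 3 of the 3‰-treated asymptomatic fish, at 8.608 FPKM, and at 15.34 FPKM in con replicate 1 was lower than in the other con fish. Genes with r of at least 0.9 numbered 4 for semaphorin-4C isoform X1 and 0 for each of the other semaphorins, of 24644 compared. The files give none of these loci a name.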

How the data were processed

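Gill RNA of 15 fish was sequenced with 1 library per fish. The authors deposited FPKM values of 40116 genes per fish; the paper describes TruSeq libraries and a Trinity assembly, while the labels describe NEBNext reagents and most identifiers are genome loci. The sources used here name no aligner, counting tool, build or filter for these values. From each file, 1 line of annotation text was left out. Ratios of low FPKM between libraries showed no step of 1 read (at most 0.962% of low genes shared a ratio), so no count test was used.

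Log2(FPKM + 1) was fitted with limma 3.58.1 in R 4.3.3 over the 5 groups, for 24647 genes whose mean over fish reached 0.5 FPKM. Residual degrees of freedom were 10, and the prior added 2.64. P values were adjusted by Benjamini-Hochberg over these genes. Calls used the thresholds of the study's methods, a fold of 1.5 and a p below 0.05, which is not said to be adjusted and was taken as unadjusted. The fit was tested on simulated data. Alternatives were the adjusted p, only the groups compared, no filter or a mean of at least 1, median-ratio scaling, quantile normalization, a pseudocount of 0.1 or 0.01, a variance prior that follows mean expression, a replicate block and leaving out each fish. The members, groups, tests and alternatives were chosen with earlier results of these data known. Named were the 3 semaphorins and, for each, the gene with the highest r. Infected fish are not analysed here.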

Additional observations from a re-analysis of the deposited data

How the results depend on the processing

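Of 27 results (3 genes in 9 comparisons), 10 changed their call in 26 of 492 alternative values, and 0 calls turned their direction. Values near 0 that were no DEGs changed sign in 12 cases, at most 0.273 in size. With the adjusted p as threshold, the calls of semaphorin-4B in 6‰-treated asymptomatic (0.90) and symptomatic fish (0.78) vs con and of semaphorin-4C isoform X1 in 6‰-treated asymptomatic fish vs con (0.98) and in symptomatic vs asymptomatic fish at 6‰ (-0.65) were lost. With a pseudocount of 0.1 or 0.01, semaphorin-3E passed in 6‰-treated symptomatic fish vs con (0.81 or 0.88), in treated fish vs con (0.66 or 0.70) and in symptomatic vs asymptomatic fish (-0.64 or -0.69), and semaphorin-4B was lost in 6‰-treated symptomatic fish vs con (0.95 or 0.98). The smaller added number raises fold changes at low FPKM by construction. Quantile normalization added semaphorin-4B with symptoms at 3‰ (0.74), and the cause was not tested. Leaving out each fish gave semaphorin-4B 0.57 to 1.13 in 6‰-treated asymptomatic and 0.45 to 1.01 in symptomatic fish vs con, 0.20 to 0.77 in treated fish vs con, 0.28 to 1.03 with symptoms at 3‰ and -1.15 to -0.40 for the interaction, and semaphorin-4C isoform X1 -0.83 to -0.45 with symptoms at 6‰. With the replicate number as a block, semaphorin-4B in 6‰-treated symptomatic fish vs con (0.78) was no longer a DEG, and no other call changed. The numbers were not taken to pair the fish, since nothing in the labels ties them and correlations of same-numbered fish ranged from -0.474 to 0.541 (those of other-numbered fish from -0.556 to 0.414). As a hint from the data, 8 of 15 fish correlated best with their own number, which 4 of the 12 fish of other groups share. The block moved the number of DEGs over all genes from 2555 to 2505 in 6‰-treated asymptomatic fish vs con. Rescaling moved the median log2 fold change of all genes by at most 0.0930. After either rescaling, or with either smaller pseudocount, the adjusted p of semaphorin-3E in 6‰-treated asymptomatic fish vs con was not below 0.05. With 3 fish per group and no read counts, small changes at about 1 FPKM cannot be resolved.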

Other observations

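The loci around the 3 semaphorins were looked at for shared change. Within 100 kb of semaphorin-3E on its scaffold lie 2 loci, of which 1 was tested, and its r with semaphorin-3E over the 15 fish was 0.208. This locus was a higher DEG in 3‰-treated asymptomatic fish vs con, as were 4.24% of all tested genes, while semaphorin-3E was not. It was no DEG in 6‰-treated asymptomatic fish vs con, where semaphorin-3E was. Within 100 kb of semaphorin-4C isoform X1 lie 6 loci, 5 of them tested, with r of -0.367 to 0.779. Of these 5, 1 was a higher DEG in 6‰-treated asymptomatic fish vs con and 1 a lower DEG in symptomatic vs asymptomatic fish at 6‰, the comparisons in which semaphorin-4C isoform X1 was called, beside 7.1% and 3.23% of all tested genes. A higher DEG was also found for 1 of the 5 in 3‰-treated symptomatic fish vs con, where semaphorin-4C isoform X1 was not called and 4.27% of all tested genes were. Semaphorin-4B lies in a denser stretch with 19 loci within 100 kb, 11 of them tested, with r of -0.407 to 0.561. Of these 11, 1 was a higher DEG in 6‰-treated asymptomatic fish vs con, beside 7.1% of all tested genes. In 6‰-treated symptomatic fish vs con 0 of the 11 were DEGs in either direction, beside 5.97% of all tested genes. Correlations are given as descriptions, and the loci have no names in the files.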
